A study of Mus musculus with 27 samples.

Results

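Hmox1, Nqo1, Gclm, Slc7a11, Srxn1, Txnrd1, Ftl1, Fth1, Slc40a1 and Tfrc are genes of the NRF2 response and of heme and iron handling. They were chosen by symbol as a list of known pathway genes, and all 10 were found among the 40129 genes of the table and among the 27137 genes tested. Their RNA was measured in whole retinas of C57BL/6 wild-type mice (C57BL/6J in the study's methods) in the oxygen-induced retinopathy (OIR) model. In this model pups are kept in hyperoxia, which closes central retinal vessels, and then return to room air. Pups were sampled at the ischemic stage, p14, or at the peak of retinal neovascularization (RNV), p17. Controls of the same age were nOIR mice kept in room air. The groups used held 6 mice each for nOIR p14, nOIR p17 and OIR p14, and 8 mice for OIR p17, each library being 1 or both retinas of 1 perfused pup.

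NRF2 is a transcription factor that is held back and degraded through KEAP1 until oxidants or electrophiles release it. It pairs with a small MAF protein and binds antioxidant response elements, where BACH1 represses some of the same genes until heme displaces it. Heme oxygenase 1, the product of Hmox1, splits heme into biliverdin, carbon monoxide and iron. The freed iron is stored in ferritin, made of the chains encoded by Fth1 and Ftl1, or leaves the cell through ferroportin, encoded by Slc40a1, while Tfrc encodes the receptor that brings in iron bound to transferrin. Iron regulatory proteins bind hairpins called iron-responsive elements (IRE) in the RNA of several of these genes, and this changes translation or RNA stability rather than transcription.

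The IRE hairpins are shown first, since ferritin, ferroportin and transferrin receptor RNA are known to carry them and RNA levels do not show their effect on translation. A search of GENCODE transcripts (GRCm38) for the loop CAGTGN, with a C placed 5 bases before it and 5 paired bases on each side, found a match in 4 of the 10 members and in 1.24% of 21877 genes with a coding transcript. In the sequences the capitals mark the loop. Ftl1, Fth1 and Slc40a1 each held 1 match before the coding region, and Tfrc held 4 after it. The coordinates are chr7:45459780-45459806 (minus strand) for Ftl1, chr19:9982733-9982759 (plus strand) for Fth1 and chr1:45925466-45925492 (minus strand) for Slc40a1. Those of Tfrc, all on the plus strand, are chr16:32631220-32631246, chr16:32631599-32631625, chr16:32631664-32631690 and chr16:32631711-32631737, in the order printed.
Ftl1: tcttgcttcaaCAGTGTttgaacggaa
Fth1: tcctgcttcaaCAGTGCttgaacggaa
Slc40a1: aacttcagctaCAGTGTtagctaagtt
Tfrc, site at 32631220: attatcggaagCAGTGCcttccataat
Tfrc, site at 32631599: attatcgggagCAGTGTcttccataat
Tfrc, site at 32631664: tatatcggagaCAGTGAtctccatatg
Tfrc, site at 32631711: attatcgggaaCAGTGTttcccataat

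The other printed set is the core of the antioxidant response element, TGACNNNGC, searched on both strands of RefSeq promoters (GRCm38.p6, 250 bases before to 50 after a start). Of the 8 members with a promoter in that table, 3 held the core, against 14.0% of all genes with a promoter. Hmox1 and Slc40a1 had no promoter there and were not searched. The capitals mark the core, and none of the 3 cores overlapped the AP-1 like motif TGANTCA. The match of Gclm, at chr3:122245413-122245441, ended 126 bases before the start site. That of Txnrd1, at chr10:82859104-82859132, ended 84 bases before the start of its promoter, and the other Txnrd1 promoters searched held no match. The match of Srxn1, at chr2:152105542-152105570, lay after the start. All 3 are read on the minus strand, and each is a description of the letters in these windows.
Gclm: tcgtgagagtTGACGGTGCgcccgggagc
Txnrd1: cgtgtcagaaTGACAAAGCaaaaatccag
Srxn1: tgtctcactcTGACCTAGCtgcccactgc

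The deposited values are normalized reads, which are gene counts divided by 1 size factor per mouse, and depth was 17029536 to 33593428 reads per library. The lowest depth was that of OIR p17 mouse S1. Rod markers, the check of the labelled tissue, summed to between 858081.4 and 1574339.2 normalized reads per mouse over 6 genes. The nOIR p14 mouse S4 was left out, as in the study, which set it aside for lens genes. Over 6 lens markers this mouse summed to 16936.3 normalized reads, against up to 18003.4 in the other nOIR p14 mice. OIR p17 mice S2, S7 and S8, which were kept, also lay above S4, at 31988.0, 17199.0 and 21939.1. The median lens sum was 7330.2 in OIR p17 and 2191.8 in nOIR p17 mice. OIR p17 mice S6, S7 and S8 were the lowest libraries in 641 genes whose first 300 transcript bases hold at least 76.7% GC. The log2 level of those genes deviated by -0.52, -0.93 and -0.90 in these 3 libraries, and by -0.47 to 0.16 in the other 23 mice used, so that S6 lay close to the next library, OIR p14 mouse S1. Calls of members that were lost without S6, S7 and S8 are given with and without them.

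Hmox1 was by far the most changed of the 10 genes. Its RNA was higher in OIR retinas at both ages, and it was the only member to pass the limit for differentially expressed genes (DEG), an adjusted p under 0.05 with a log2 fold change above 2 or below -2. At p14, 202 of the genes tested, or 0.744%, were higher DEG, and at p17 the share was 1.9%. Lower DEG made up 0.14% and 0.173%. In nOIR p14 mice Hmox1 had 64.8, 47.5, 92.1, 48.2, 56.0 and 80.6 normalized reads. In OIR p14 mice it had 678.4, 193.3, 449.7, 402.7, 478.3 and 355.8. All 6 OIR p14 mice lay above all 6 controls. The p17 controls had 48.7, 26.1, 52.8, 103.7, 36.2 and 66.9 normalized reads. The values at p17 in OIR mice were 308.0, 1033.3, 1977.9, 918.0, 799.8, 1175.1, 787.4 and 884.7. All 8 OIR p17 mice again lay above every control of their age, with S1 the lowest and S3 the highest. Groups without overlap, with OIR above, were found for 1.91% of genes at p14 and 3.9% at p17.

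The difference of Hmox1 was 2.65 on the log2 scale at p14 (SE 0.33, 95% confidence interval 1.97 to 3.33, limma adjusted p = 2.77e-06). That is a fold of 6.26. At p17 it was 4.10 (SE 0.31, 3.46 to 4.74, limma adjusted p = 5.91e-11), or 17.15-fold. An exact permutation test of the log2 group means (two-sided) gave p = 0.00216 for 6 against 6 mice and p = 0.000666 for 8 against 6, which are the smallest it can give here. P-values measure the spread between mice, and mice of 1 litter were treated as independent, since each group came from fewer litters than mice and which litter a mouse belonged to was not known.

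Among the 4 groups the order of Hmox1 was nOIR p17, nOIR p14, OIR p14 and OIR p17. The means were 55.7 ± 27.4, 64.9 ± 18.1, 426.4 ± 159.1 and 985.5 ± 473.7 normalized reads (SD, n = 6, 6, 6 and 8). The control groups did not differ beyond their spread, with a difference of -0.30 at p17 against p14 (95% confidence interval -0.98 to 0.37, limma adjusted p = 0.932). OIR p17 retinas had more Hmox1 RNA than OIR p14 retinas, by 1.15 (SE 0.31, limma adjusted p = 0.0219), although the groups overlapped and 7 of 8 mice at p17 lay above all mice at p14. This last call was lost without OIR p14 mouse S2 (0.94, adjusted p = 0.0803) and without OIR p17 mouse S3 (0.98, adjusted p = 0.0504). It was also lost without OIR p17 mice S6, S7 and S8 together (1.10, adjusted p = 0.0975) and under 3 of 13 other settings. Those were the compared groups only, and log2 Cryaa (a lens gene) or log2 Hbb-bs (a hemoglobin gene) as a covariate. With Hbb-bs the difference was 0.67. Normalized reads of Hbb-bs were 714 to 10593 in OIR p17, 109.3 to 469.9 in OIR p14 and 86.5 to 671.2 in nOIR p17 mice. OIR p17 mice overlapped neither group, so in those comparisons this covariate cannot be cleanly separated from the group. For Hmox1 the effect at p17 minus the effect at p14 was 1.45 (95% confidence interval 0.52 to 2.38), which did not pass in limma over all genes (adjusted p = 0.129). Without OIR p17 mouse S1 it was 1.67 (limma adjusted p = 0.0208).

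Per kb of exon, with all annotated exons of a gene joined, Hmox1 changed its place among the members. In nOIR p14 retinas it was ranked 9 of 10, with 37.0 normalized reads per kb, above only Slc7a11 with 3.18. In OIR p17 retinas it was ranked 5, with 562.8 per kb, behind Fth1 (9012), Ftl1 (2682), Srxn1 (1004) and Tfrc (671.3). These places depend on the length used. For Txnrd1, ranked 6 there with 326.3 per kb, the joined exons held 7086 bases and the longest coding transcript 3622. For Hmox1 these lengths were 1751 and 1569 bases. The isozyme Hmox2, a constitutive heme oxygenase that was named after its values were seen, had log2 differences of -0.14 at p14 and -0.13 at p17 (limma adjusted p = 0.458 and 0.395).

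**Figure D1:**
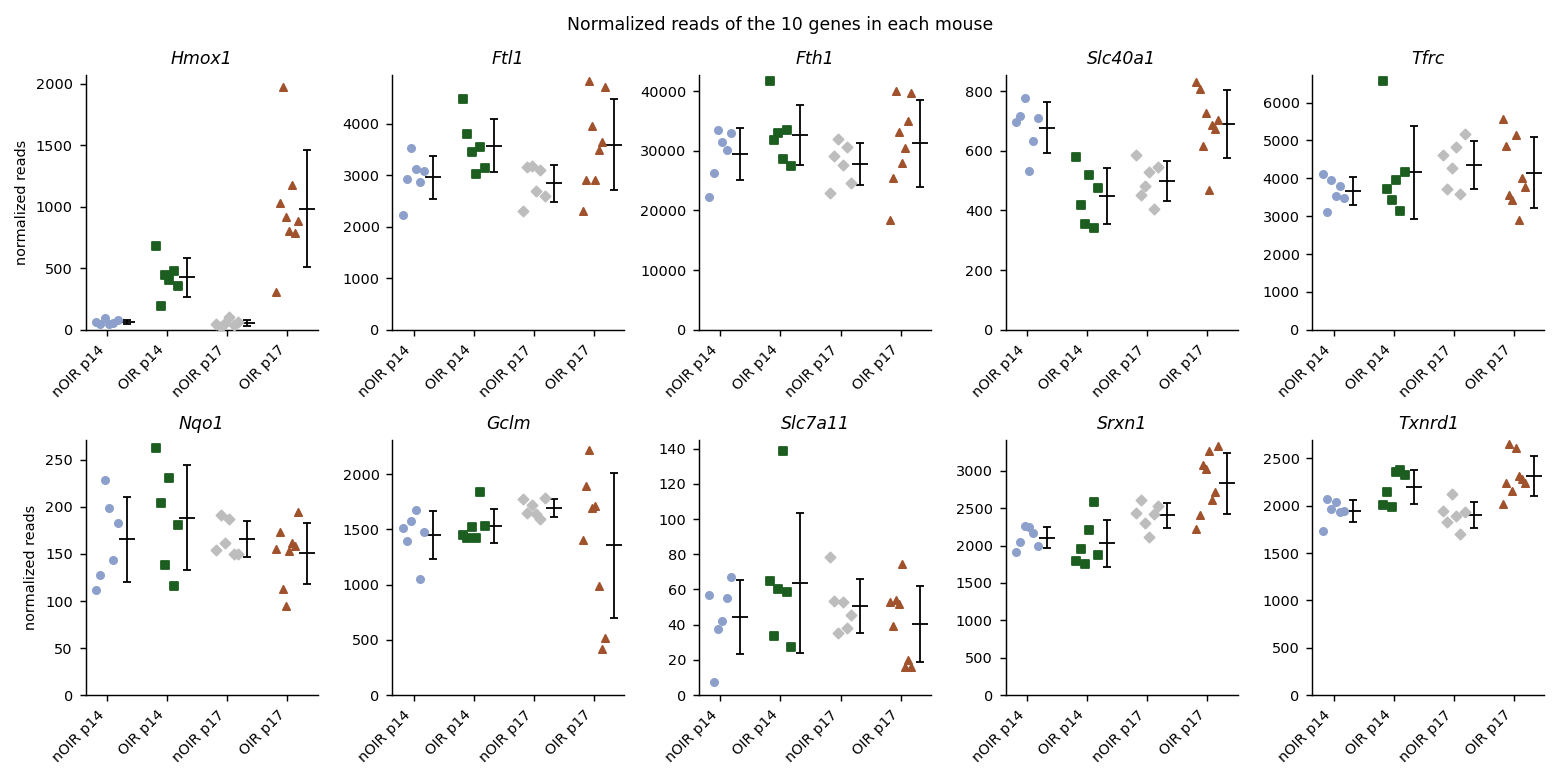
Normalized reads (vertical axes, linear from 0) of the 10 genes in each of the 26 mice, by group, with the mean and SD in black beside the points. Hmox1 is the gene whose OIR mice all lie above their controls at both ages, and the 3 lowest Gclm points are OIR p17 mice S6, S7 and S8.

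Cell type markers were read beside Hmox1. Of 11 microglia and macrophage markers, 2 were higher at p14 and 8 at p17, and none was lower at either age, against 3.18% of all genes higher and 2.91% lower at p14, and 7.39% and 5.12% at p17. At p14 the count higher was 1 without nOIR p14 mouse S1 or OIR p14 mouse S4, and 1 was lower without nOIR p14 mouse S1 or OIR p14 mouse S2. Their summed level was 1297.4 to 1730.9 normalized reads in nOIR p14, 1485.3 to 2350.5 in OIR p14, 1072.4 to 1257.8 in nOIR p17 mice and 2140.5 to 3699.0 in OIR p17 mice. Red blood cell markers did not pass in 7 of 7 genes at p14, with 1 lower at an unadjusted p under 0.05 and 0 called by edgeR or DESeq2, while 5 of 7 were higher at p17. Their sum was 99.7 to 1359.3 in nOIR p14 and 214.6 to 850.0 in OIR p14 mice, and 194.7 to 1193.6 in nOIR p17 and 1232.0 to 16997.8 in OIR p17 mice. No marker of either list was at 0 in all mice of a group. The OIR p17 mouse with the least Hmox1, S1, was also the lowest of its group in both sums. Its library was the shallowest, with 17029536 reads, against 27014467 or more in the other OIR p17 mice. S3, with the most Hmox1, had the highest red cell sum but a macrophage sum of 2936.1, while S8, with the highest macrophage sum, had 884.7 reads of Hmox1. With log2 Hbb-bs, a hemoglobin gene, as a covariate, the difference of Hmox1 at p17 was 3.67 (limma adjusted p = 2.67e-06). The part of red blood cells and of macrophages in the rise of Hmox1 was not tested, and in whole retina more cells of a type and more RNA per cell cannot be told apart.

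**Figure D2:**
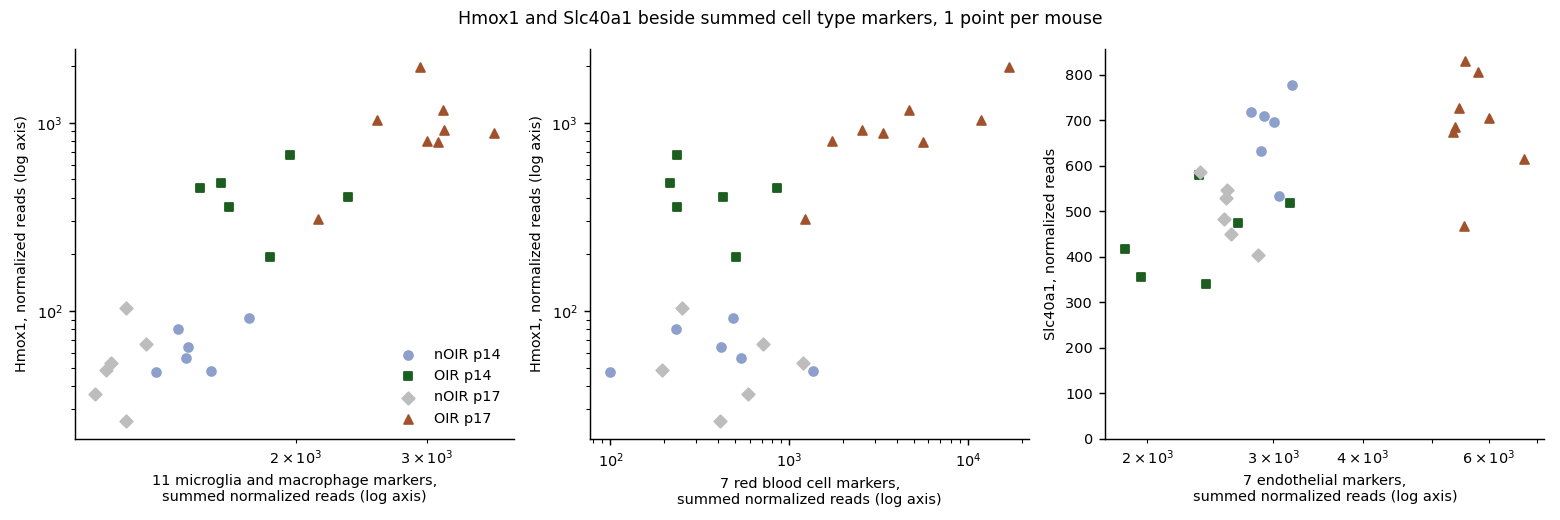
Hmox1 against the summed microglia and macrophage markers and the summed red blood cell markers (all axes logarithmic), and Slc40a1 (linear axis) against the summed endothelial markers (logarithmic axis), with 1 point per mouse. Every OIR mouse lies above the nOIR mice in Hmox1, and OIR p17 mice (triangles) lie apart in the endothelial sum, at 5351.9 or more.

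Slc40a1, which encodes ferroportin, the exporter of iron from cells, moved in opposite directions at the 2 ages. It fell in OIR retinas at p14 and rose at p17. The lowest, median and highest values were 532.5, 702.8 and 778.0 normalized reads in nOIR p14 and 340.2, 445.1 and 579.3 in OIR p14 mice. They were 403.5, 505.1 and 585.8 in nOIR p17 and 468.1, 694.7 and 830.7 in OIR p17 mice. At p14, 5 of 6 OIR mice lay below every control, and at p17, 7 of 8 lay above every control, with OIR p17 mouse S5 the exception.

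The log2 difference of Slc40a1 was -0.61 at p14 (SE 0.14, limma adjusted p = 0.00544) and 0.46 at p17 (SE 0.13, limma adjusted p = 0.0175). The effect at p17 minus the effect at p14 was 1.07 (95% confidence interval 0.68 to 1.46, limma adjusted p = 0.0013). It was the only member whose difference between the ages passed in limma, against 1.43% of genes with a higher effect at p17. DESeq2 on recovered reads also called Hmox1. In limma, 3 members had a higher effect at an unadjusted p under 0.05. The exact permutation test gave p = 0.00433 at p14 and p = 0.00599 at p17. In the controls Slc40a1 was lower at p17 than at p14 by a difference that did not pass over all genes (-0.44, 95% confidence interval -0.73 to -0.15, limma adjusted p = 0.257). The call at p17 was lost without nOIR p17 mouse S5 (0.40, adjusted p = 0.0601) and without OIR p17 mice S6, S7 and S8 (0.45, adjusted p = 0.0653). It was also lost with log2 Hbb-bs as a covariate (0.62, adjusted p = 0.0509), whose values did not overlap between the p17 groups.

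Endothelial markers were read beside Slc40a1. Their sum over 7 genes was 2786.7 to 3184.6 normalized reads in nOIR p14 and 1862.8 to 3167.5 in OIR p14 mice. It was 2370.3 to 2856.4 in nOIR p17 and 5351.9 to 6731.5 in OIR p17 mice, and no marker was at 0 in all mice of a group. At p14, 1 of 7 was lower (Cldn5, a tight junction gene, by a log2 difference of -0.83) and 1 was higher (Pecam1, 0.40). Of all genes, 2.91% were lower and 3.18% higher at that age. When a mouse was left out, the count higher at p14 was 0 to 1 (0 without nOIR p14 mouse S3, S5, S6 or S7 or OIR p14 mouse S1, S4, S5 or S6) and the count lower 1 to 2 (2 without OIR p14 mouse S4 or S6). At p17, 6 of 7 were higher, Cldn5 by 0.89 and Pecam1 by 1.27, against 7.39% of all genes. The test of the difference between the ages was passed by 6 of 7, against 1.43% of genes with a higher effect at p17. Müller glia markers were lower in 4 of 6 genes at p14 and in 5 of 6 at p17, against 2.91% and 5.12% of all genes. None of them was higher, but for 1 at p17 without OIR p17 mouse S4. Their sum was 58238.4 to 76713.6 normalized reads in nOIR p14 and 47307.5 to 57774.6 in OIR p14 mice, and 63904.3 to 74047.2 in nOIR p17 and 46439.1 to 64446.1 in OIR p17 mice. The part of these cells and of the macrophages in the change of Slc40a1 was not tested.

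The ferritin chains, the store of cellular iron, were the most abundant members per kb of exon and did not pass in either comparison. Fth1, the heavy chain with ferroxidase activity, had a median of 30829 normalized reads in nOIR p14 and 32374 in OIR p14 mice, and of 28344 and 31776 in the same groups at p17. Its differences were 0.15 at p14 (95% confidence interval -0.15 to 0.45, limma adjusted p = 0.696) and 0.14 at p17 (-0.14 to 0.42, limma adjusted p = 0.616). Ftl1, the light chain, had medians of 3004, 3503, 2902 and 3565 in the same order. It differed by 0.27 at p14 (-0.02 to 0.57, limma adjusted p = 0.345) and by 0.31 at p17 (0.03 to 0.58, limma adjusted p = 0.15). Both chains were lowest in S1 and highest in S3 among the OIR p17 mice, as was Hmox1, and without S1 the difference of Ftl1 at p17 was 0.39 (limma adjusted p = 0.0301). It was 0.38 with the same total in each mouse (limma adjusted p = 0.0495). Ferritin genes have processed copies in the genome, and reads that fit more than 1 place are not counted with the settings used, so their levels are uncertain. Of 4 such copies tested, none was called at either age by limma (1 higher at p17 at an unadjusted p under 0.05, 0 by edgeR and 1 by DESeq2), and Ftl1-ps1 averaged 27.9 normalized reads at p17 in OIR mice.

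Tfrc, the receptor for iron uptake, did not pass either. The median was 3673 normalized reads in nOIR p14 and 3837 in OIR p14 mice, then 4437 and 3884 at p17, and the groups overlapped at both ages. Its log2 difference was 0.14 at p14 (95% confidence interval -0.17 to 0.45, limma adjusted p = 0.73) and -0.09 at p17 (-0.38 to 0.20, limma adjusted p = 0.787). The highest value of all mice, 6556.0, was that of OIR p14 mouse S1.

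**Figure D3:**
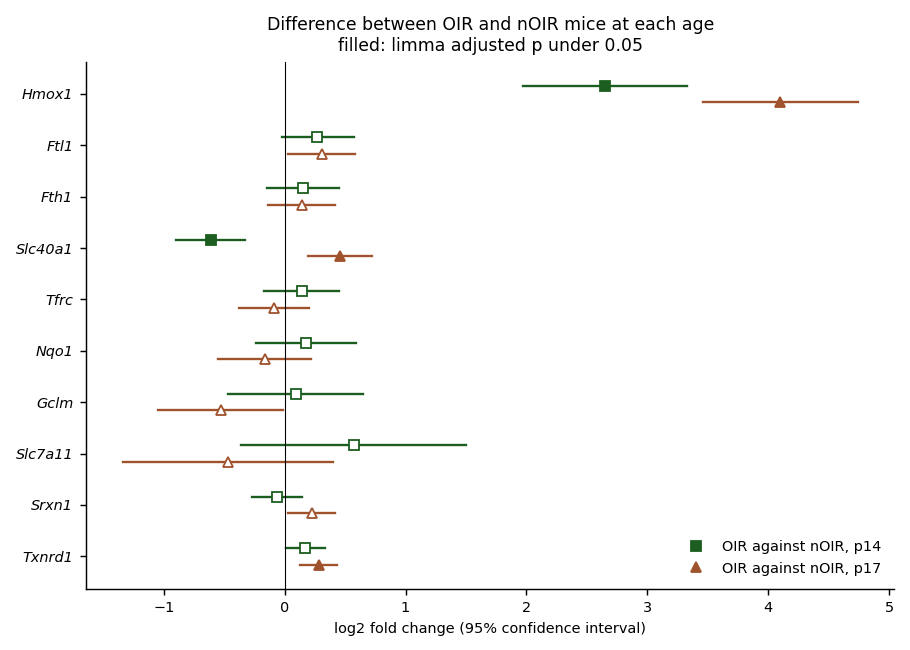
Log2 fold change (horizontal axis) of OIR against nOIR mice at p14 (squares) and at p17 (triangles) for the 10 genes, with 95% confidence intervals from limma and filled symbols for an adjusted p under 0.05. Hmox1 lies at 2.65 and 4.10, Slc40a1 on opposite sides of 0, and Txnrd1 at 0.28 is the other filled symbol.

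Of the members that serve thiol and quinone redox reactions, 1 passed between OIR and nOIR retinas. Txnrd1, the cytosolic reductase of thioredoxin, rose modestly at p17. Its lowest, median and highest values were 1701, 1917 and 2121 normalized reads in nOIR p17 and 2016, 2263 and 2648 in OIR p17 mice. At p17, 7 of 8 OIR mice lay above every control. The difference was 0.28 (SE 0.07, limma adjusted p = 0.00847, exact permutation p = 0.00133), a fold of 1.21. It was 0.17 at p14 (95% confidence interval 0.01 to 0.33, limma adjusted p = 0.238), and the effects at the 2 ages differed by 0.10 (-0.11 to 0.32, limma adjusted p = 0.792). With log2 Hbb-bs as a covariate, whose values did not overlap between the p17 groups, the p17 call was lost (0.23, adjusted p = 0.253).

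Srxn1, which encodes sulfiredoxin, the enzyme that restores overoxidized peroxiredoxins, was higher in OIR retinas at p17 than at p14. Its median was 1917 normalized reads in OIR p14 and 2874 in OIR p17 mice, and 6 of 8 mice at p17 lay above all mice at p14. That difference was 0.48 (SE 0.09, limma adjusted p = 0.00134). Against nOIR p17 mice, whose median was 2428, the difference was 0.23 (95% confidence interval 0.03 to 0.42, limma adjusted p = 0.127), and 6 of 8 OIR mice lay above every control. This passed after each mouse was rescaled to the same total (0.29, adjusted p = 0.0311), after quantile normalization (0.29, adjusted p = 0.0434) and without OIR p17 mouse S1 (0.28, adjusted p = 0.0406). With log2 Hbb-bs as a covariate, whose values did not overlap between the OIR stages, the difference between them was 0.45 and no longer passed (adjusted p = 0.186). The controls differed by 0.19 between the ages (limma adjusted p = 0.746), with 5 of 6 mice at p17 above all at p14 (exact permutation p = 0.0152). The effect at p17 minus that at p14 was 0.29 (0.01 to 0.57, limma adjusted p = 0.451).

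Nqo1, a quinone reductase often read as an NRF2 target, was not called at either age. Its medians were 163.3 normalized reads in nOIR p14 and 192.2 in OIR p14 mice, then 157.7 and 156.9 at p17, with overlap in both comparisons. The log2 difference was 0.18 at p14 (95% confidence interval -0.24 to 0.59, limma adjusted p = 0.758) and -0.16 at p17 (-0.55 to 0.22, limma adjusted p = 0.688).

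Among the p17 mice, Gclm and Slc7a11 were lowest in OIR mice S6, S7 and S8. Gclm encodes the modifier subunit of the enzyme that starts glutathione synthesis. It had 983.5, 413.4 and 519.7 normalized reads in these mice, against 1403.1 to 2221.1 in the other 5 OIR p17 mice and 1595.6 to 1788.0 in nOIR p17 mice. Slc7a11, the cystine transporter that supplies that synthesis, had 15.7, 20.1 and 16.1, against 39.0 to 74.5 in the other OIR p17 mice and 35.5 to 78.4 in nOIR p17 mice. These are the libraries lowest in genes with GC-rich transcript starts, and OIR p14 mouse S1, next to S6 in that level, had 1453.5 reads of Gclm, within the range of its group (1420.4 to 1834.8). The library after it, nOIR p14 mouse S6 at -0.33, had 1049.2, the lowest of its group. The first 300 bases of the Gclm transcript hold 73.0% GC and those of Slc7a11 49.3%, beside a median of 60.7% over genes. Srxn1, with 74.0% GC, had 2610.4, 2720.8 and 3332.2 normalized reads in the same 3 mice, within the range of the other OIR p17 mice (2218.3 to 3267.4) but for S8, which lay above it.

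Neither gene passed at p17. The difference of Gclm was -0.53 (95% confidence interval -1.05 to -0.01, limma adjusted p = 0.207), and it was 0.06 (adjusted p = 0.851) without the 3 libraries. With the level of GC-rich starts as a covariate it was -0.03 (adjusted p = 0.945). For Slc7a11 the difference was -0.47 (-1.34 to 0.40, limma adjusted p = 0.577), and 0.12 (adjusted p = 0.93) without the 3 libraries. At p14 the differences were 0.09 for Gclm (-0.47 to 0.65, limma adjusted p = 0.929) and 0.57 for Slc7a11 (SE 0.45, limma adjusted p = 0.598). Hmox1 at p17 was 4.05 (limma adjusted p = 4.85e-09) without the same libraries.

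**Figure D4:**
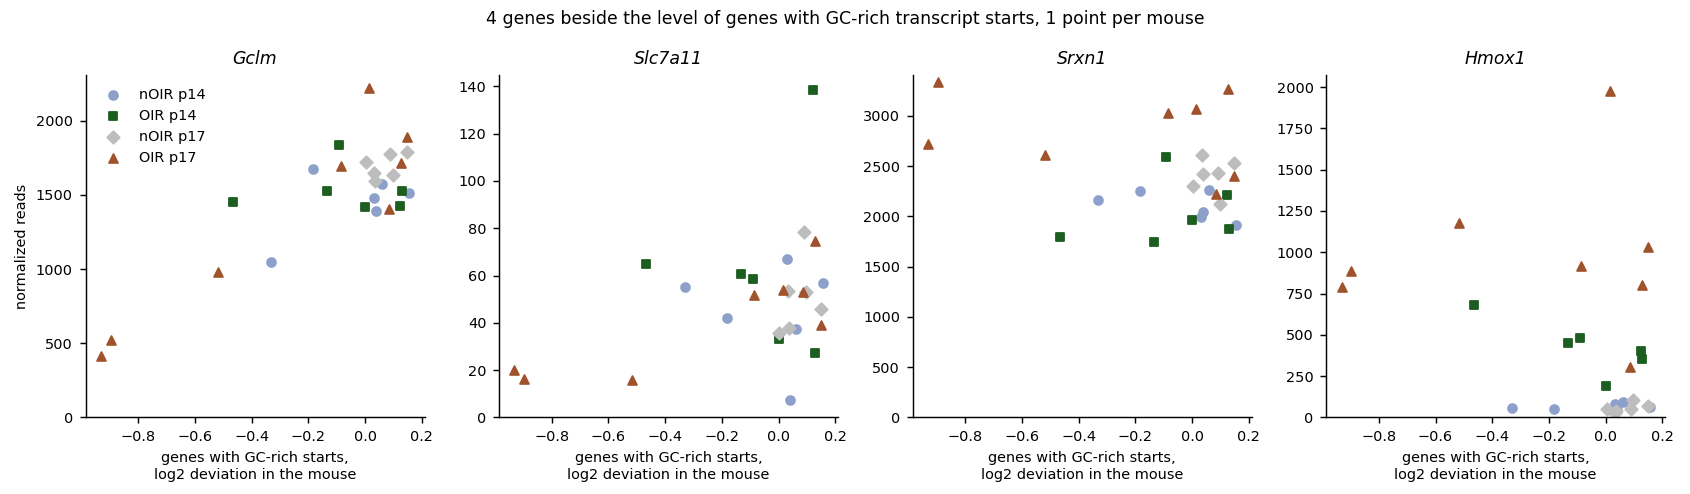
Normalized reads of Gclm, Slc7a11, Srxn1 and Hmox1 (vertical axes, linear from 0) against the log2 deviation of 641 genes with GC-rich transcript starts in each of 26 mice. The 3 OIR p17 mice at -0.52, -0.93 and -0.90 hold the 3 lowest values of Gclm, while Hmox1 in them lies between 787.4 and 1175.1.

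Over the members, 1 of 10 was higher and 1 was lower at p14, against 3.18% and 2.91% of all genes tested. At p17, 3 were higher and 0 lower, against 7.39% and 5.12% of all genes. Those 3 were Hmox1, Slc40a1 and Txnrd1. For the 0 lower members at p17, 1 (Gclm) had an unadjusted limma p under 0.05 and edgeR and DESeq2 each called 0. The median log2 difference over the members was 0.16 at p14 and 0.18 at p17, beside 0.02 and -0.02 over all genes. Between the control groups, 0 members were called by limma, edgeR or DESeq2, with 1 at an unadjusted limma p under 0.05, and 0.158% of all genes were called in each direction. Between OIR p17 and OIR p14 retinas, 3 members were higher (Hmox1, Srxn1 and Slc40a1, the latter by 0.63) and 0 lower in all of these tools, with 0 lower at an unadjusted limma p under 0.05, against 4.11% and 1.81% of genes.

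Regulators of the pathway were read from a list of 12 genes, of which 3 were higher and 0 lower at both ages, beside the shares of all genes given above. At p14 the count higher was 1 to 3 when a mouse was left out, 1 without nOIR p14 mouse S6 or S7 or OIR p14 mouse S3 or S5, and 1 was lower without OIR p14 mouse S4. At p17 edgeR and DESeq2 each called 4 higher. Nfe2l2, which encodes NRF2, had medians of 754.4 normalized reads in nOIR p14 and 1120 in OIR p14 mice, then 867.1 and 1197 at p17. It rose by 0.46 at p14 and 0.54 at p17 (limma adjusted p = 0.027 and 0.002). Maff and Mafk encode small MAF partners. Maff rose by 2.01 at p14 and 3.06 at p17 (limma adjusted p = 0.00318 and 1.66e-06), from a mean of 9.80 normalized reads in nOIR p17 to 76.4 in OIR p17 mice. Mafk rose by 0.61 and 0.78 (limma adjusted p = 0.0408 and 0.00147). Keap1, the negative regulator, had differences of -0.15 and -0.00 (limma adjusted p = 0.598 and 0.997), and Bach1, the heme-sensitive repressor, of 0.11 and 0.39 (limma adjusted p = 0.813 and 0.0592). The list's median was 0.02 at p14 and -0.04 at p17.

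Among 24 other NRF2 target genes tested, 2 were higher and 1 was lower at p14, and 6 were higher and 3 lower at p17, beside 3.18% and 2.91% of all genes at p14 and 7.39% and 5.12% at p17. When a mouse was left out, the counts at p14 were 1 to 3 higher (1 without nOIR p14 mouse S1, S2 or S7 or OIR p14 mouse S1, S4 or S5) and 0 to 1 lower (0 without nOIR p14 mouse S3, S5, S6 or S7 or OIR p14 mouse S3 or S5). At p17 they were 4 to 6 higher and 1 to 3 lower, with 1 lower without nOIR p17 mouse S2, S3 or S4 or OIR p17 mouse S6, and 1 lower by edgeR. Without OIR p17 mice S6, S7 and S8 together, 3 were higher at p17. Slc3a2, the heavy chain that pairs with the Slc7a11 product and with other amino acid transporters, rose by 0.44 and 0.52 (limma adjusted p = 0.00134 and 2.27e-05). Gstm1, a glutathione transferase, rose by 0.59 at p14 and 0.70 at p17 (limma adjusted p = 0.0288 and 0.00197). Abcc1, an exporter of glutathione conjugates, rose by 0.60 at p17 (limma adjusted p = 0.00221). Tkt, the transketolase of the pentose phosphate pathway, was lower at both ages, by -0.31 and -0.34 (limma adjusted p = 0.0247 and 0.00329). The median of the list was -0.00 at p14 and 0.10 at p17.

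Of 22 heme genes other than the members, 0 passed at p14, against 3.18% of all genes higher and 2.91% lower. At an unadjusted limma p under 0.05, 2 were higher and 2 lower there, with 0 called by edgeR and 0 by DESeq2. At p17, 4 were higher (5 by edgeR and 6 by DESeq2) and 0 lower, against 7.39% and 5.12% of all genes. At p14, 1 was higher without nOIR p14 mouse S3 and 1 lower without OIR p14 mouse S4. The difference between the ages itself passed for 1 of the 22, Alas2, against 1.43% of all genes with a higher effect at p17. Alas2, the erythroid enzyme that starts heme synthesis and also 1 of the red cell markers, rose by 1.81 at p17 (limma adjusted p = 0.000133). Blvrb, which encodes biliverdin reductase B, rose by 0.87 (limma adjusted p = 0.00155), with medians of 116.7 normalized reads in nOIR p17 and 226.4 in OIR p17 mice. Blvra, which encodes biliverdin reductase A and was named after its values were seen, was not called at either age. Its differences were -0.35 at p14 and -0.12 at p17 (limma adjusted p = 0.127 and 0.614). Abcg2, a transporter that can export porphyrins and heme, rose by 0.43 (limma adjusted p = 0.0058). The fourth was Cd163, the receptor for hemoglobin and haptoglobin on macrophages, which was named after its values were seen, is also 1 of the macrophage markers, and averaged 21.8 normalized reads at p17 in OIR mice. These changes stand beside the red cell and macrophage sums given above, and their part was not tested.

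Of 24 iron genes tested, 4 were higher and 1 lower at p14, against 3.18% and 2.91% of all genes. At p17, 7 were higher and 0 lower, against 7.39% and 5.12%. There, 3 were lower at an unadjusted limma p under 0.05, 0 by edgeR and 1 by DESeq2. Without nOIR p14 mouse S5 the count lower at p14 was 0, and the count lower at p17 was 0 to 2 when a mouse was left out, 2 without OIR p17 mouse S3. Cp encodes ceruloplasmin, a ferroxidase that works with ferroportin. It had medians of 2557 normalized reads in nOIR p14 and 5508 in OIR p14 mice, and it rose by 1.24 at p14 and 0.83 at p17 (limma adjusted p = 1.36e-06 and 6.31e-05). Trf, the iron carrier transferrin, rose by 1.00 and 1.11 (limma adjusted p = 0.0232 and 0.00272). Slc25a37, which encodes the mitochondrial iron importer mitoferrin 1, rose by 1.15 and 1.18 (limma adjusted p = 0.000113 and 8.15e-06). Lcn2, a secreted protein that binds iron-loaded siderophores, rose by 2.42 and 1.36 (limma adjusted p = 2.3e-05 and 0.00352). Slc39a8, a transporter of zinc, manganese and iron, rose by 1.16 at p17 (limma adjusted p = 1.05e-05), and its effect was higher at p17 than at p14 by 1.41 (limma adjusted p = 0.0013). The lower gene at p14 was Steap3, a ferrireductase of endosomes named after its values were seen, at -0.57 (limma adjusted p = 0.0198). The median of the list was 0.04 at p14 and -0.02 at p17. These changes stand beside the macrophage, endothelial and Müller glia sums given above, and the part of those cells was not tested.

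**Figure D5:**
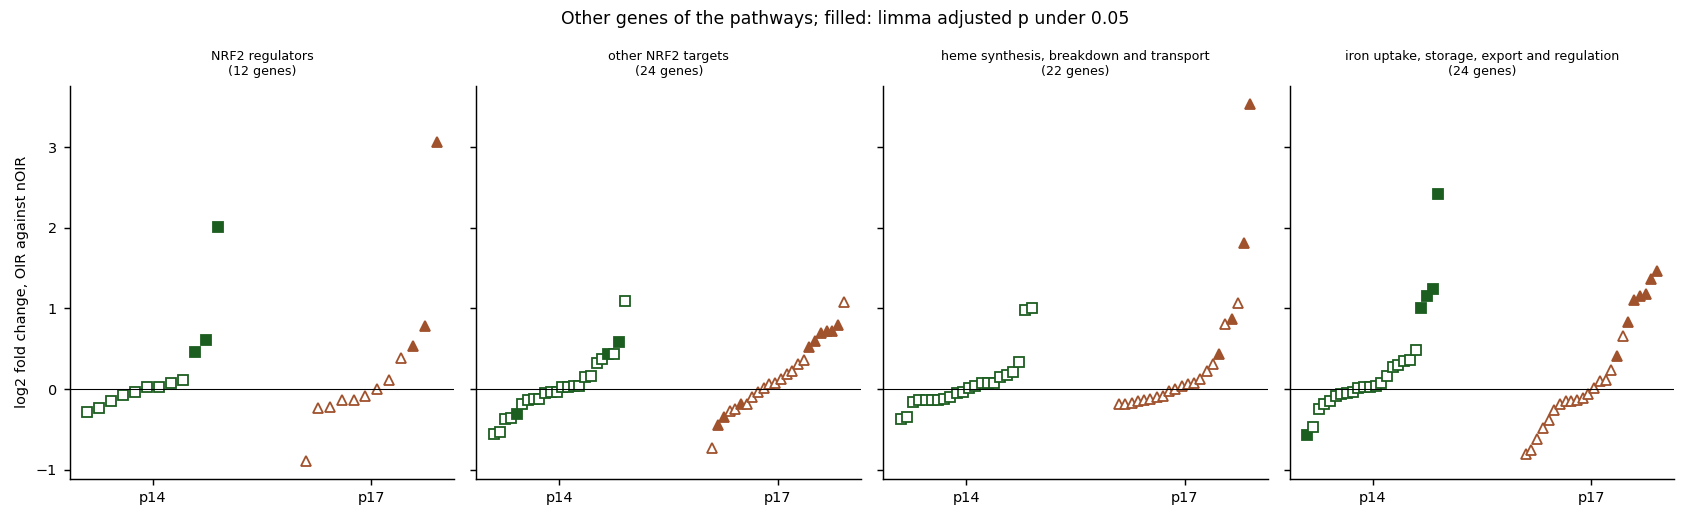
Log2 fold change of OIR against nOIR mice (vertical axis) for the other genes of 4 lists at p14 (squares) and p17 (triangles), sorted within each age, with filled symbols for a limma adjusted p under 0.05. In the list of regulators 3 of 12 are filled at both ages, and in the heme list 0 of 22 are filled at p14 and 4 at p17.

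The genes whose pattern over the 26 mice was most like that of Hmox1, by the root mean square difference of log2 values centred on the controls, were Cebpd (0.59), Tagln2 (0.63), Capg (0.63), Gfap (0.64) and H2-Ab1 (0.66), out of 19004 compared. Their log2 differences at p14 and p17 were 3.13 and 3.52 for Cebpd, 2.29 and 3.61 for Tagln2, 2.23 and 3.23 for Capg, 3.23 and 3.68 for Gfap, and 2.93 and 3.76 for H2-Ab1. Cebpd encodes a transcription factor, Gfap a filament protein of glia and H2-Ab1 an antigen-presenting protein. The mice are shared by all these values, so the likeness is a description.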

How the data were processed

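Whole retinas of C57BL/6 mice (C57BL/6J in the study's methods) were sequenced by the authors, 1 library per mouse, from amplified cDNA with tagmentation and single reads that do not mark strand, so reads of overlapping antisense genes cannot be told apart. The authors mapped reads with STAR 2.7.8a (Gencode M28), counted them with featureCounts 2.0.1 (default parameters), and deposited normalized reads, a signal made by division of the counts of a mouse by its DESeq2 1.34 size factor. The deposited table also holds the authors' group means, log2 fold changes and adjusted p-values of their own comparisons, which were not used. Whole reads were recovered from 100% of values (tolerance 1e-06), with 17029536 to 33593428 reads per mouse used (median 30182576). No 2 mice of a group were copies (lowest chi-square per degree of freedom 9.39).

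The members and lists were chosen with earlier results of these data known. Mouse S4 of nOIR p14 was left out, which left 26 of 27. Limma 3.58.1 (R 4.3.3, eBayes with trend) was fitted to log2(normalized reads + 1) of the 4 groups at once for 27137 genes with a mean of at least 1, so fold changes of low genes are understated, with Benjamini-Hochberg adjustment over all of them and a threshold of 0.05. Single genes were also tested by an exact two-sided permutation test (scipy 1.17.1). From each list, up to 4 genes with the smallest adjusted p at p17 and up to 2 at p14 were named, provided their mean reached 10, together with all members, Nfe2l2, Keap1, Bach1 and the 5 genes most like Hmox1. The fits were tested on simulated data. Sequences and exon lengths come from RefSeq (GRCm38.p6) and GENCODE (GRCm38), an annotation other than that of the counts, and no coordinates were taken from the table.

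As alternatives, the pseudocount was set to 0.1, the minimum mean was dropped (all genes above 0) or raised to 10, and S4 was kept. Others were the compared groups only, a replicate block, the same total in each mouse, quantile normalization, edgeR 4.0.16 and DESeq2 1.42.0 on recovered reads, covariates for log2 Cryaa or log2 Hbb-bs, and omission of every mouse in turn. A covariate for genes with GC-rich transcript starts, and a fit without OIR p17 mice S6, S7 and S8, were chosen after the data were seen.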

Additional observations from a re-analysis of the deposited data

Results flagged for a closer look

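In OIR p14 retinas, 3 values stood far from the other mice of their group. Gclm was 1835 normalized reads in mouse S5, against 1529.5 in the next mouse. Slc7a11 was 138 in mouse S4, against 64.9 in the next, and Tfrc was 6556 in mouse S1, against 4179.2. They are 3 of 40 groups tested by Dixon's criterion, which chance passes in about 1 of 20 groups. The difference of Slc40a1 between OIR and nOIR mice was not the same at both ages, by 1.07 on the log2 scale in the test of that difference.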

How the results depend on the processing

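Hmox1 stayed called at both ages under all 14 alternatives, at 2.52 to 2.72 at p14 and 3.67 to 4.17 at p17, and when each of 26 mice was left out (2.49 to 2.86 and 3.91 to 4.32). The members called higher at p17 numbered 5 with the same total in each mouse and 1 with log2 Hbb-bs as a covariate, against 3, and 2 to 5 when a mouse was left out (5 without OIR p17 mouse S1). For the effect at p17 minus that at p14 the count was 2 with DESeq2 (Hmox1 1.43), against 1, and 1 to 2 when a mouse was left out. For OIR p17 against OIR p14 it was 1 with Hbb-bs, where Hmox1 was 0.67. Mouse numbers were not treated as pairs. Of 34 same-numbered pairs 7 had a correlation of residuals over 0.1. Their median was 0.014 and their highest 0.33, against a median of -0.003 in other pairs. Of 25 mice, 7 correlated best with their own number, and the share that chance would give was not computed. A replicate block left the counts of called members at 1 higher and 1 lower at p14 and 3 higher at p17, with Hmox1 at 2.60 and 4.09.

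Signs changed only for values that were never called, and the cause was not tested. Without OIR p17 mice S6, S7 and S8, Gclm was 0.06 at p17 and 0.21 against OIR p14, Slc7a11 was 0.12 and Tfrc 0.03 at p17, and Ftl1 was -0.06 for the difference between ages. With Hbb-bs, Fth1 was -0.13 and Tfrc 0.03 at p17, and Ftl1 was -0.20 for the difference between ages. With GC-rich starts as a covariate, Fth1 was -0.03 at p17 and Ftl1 -0.10 for the difference between ages. With the block, Gclm was -0.07 at p14 and Ftl1 -0.06 for the difference between ages. With S4, Ftl1 was -0.04 for that difference and 0.02 between control groups. The same total gave Nqo1 -0.01 between control groups, Fth1 0.01 for the difference between ages and Tfrc -0.01 between OIR groups, and Cryaa as a covariate gave Nqo1 -0.00 between control groups. For Ftl1 between OIR groups, quantile normalization gave 0.00, edgeR 0.02 and DESeq2 0.01. For the difference between ages of Fth1, edgeR gave 0.03 and DESeq2 0.02, and DESeq2 gave Tfrc -0.00 between OIR groups. When each mouse was left out, ranges that changed sign or came to 0.00 were 0.00 to 0.14 for Gclm and 0.00 to 0.22 for Tfrc at p14, and -0.07 to -0.00 for Txnrd1, -0.07 to 0.14 for Nqo1, -0.05 to 0.56 for Slc7a11 and -0.13 to -0.00 for Ftl1 between control groups. They were -0.09 to 0.07 for Ftl1, -0.15 to 0.01 for Fth1 and -0.06 to 0.15 for Tfrc between OIR groups, and -0.03 to 0.12 for Ftl1 and -0.07 to 0.09 for Fth1 for the difference between ages.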
